A study of Arabidopsis thaliana with 12 samples.

Results

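Wild-type Arabidopsis thaliana seedlings treated for 3 h with 50 µM abscisic acid (ABA) were compared with mock-treated wild-type seedlings, with 3 RNA-seq libraries in each group. Whole seedlings were taken at an age of 1 week. Every gene of the deposited count table was a member of the comparison: 33602 genes were counted, and 21151 of them had enough fragments to be tested. The study also held ABA-treated and mock-treated cdk8 seedlings, mutant for a kinase of the Mediator complex. Those libraries shared the filter on low counts, the scaling, the estimate of spread and the grouping of genes by abundance. They also served to test whether a response differed between genotypes. The headings of the count table name the mock libraries "0h", and the labels do not say whether the mock seedlings were also kept for 3 h. If they were not, ABA and 3 h of daytime and handling cannot be told apart. Neither the ecotype nor a separate origin of the 3 libraries of a group is stated, so that p-values measure the spread between these libraries, which may be technical.

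ABA is the plant hormone of drying tissues and maturing seeds. It binds PYR/PYL receptors, which then hold back PP2C phosphatases and so release SnRK2 kinases, and these kinases act on bZIP factors that bind promoter elements with an ACGT core. In seedlings the hormone closes stomata, slows growth and switches on protective proteins such as dehydrins. The circadian clock, by contrast, runs on a loop of morning and evening repressors, and its genes change within hours without any hormone.

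The ABA libraries held 17675785 to 19326565 assigned fragments and the mock libraries 18748275 to 21188494, so that 3 fragments corresponded to 0.155 to 0.170 CPM (counts per 1000000 counted fragments) in ABA libraries and 0.142 to 0.160 CPM in mock libraries. The 10 genes with most fragments took 5.63 to 5.84% of all fragments in ABA libraries, against 7.76 to 8.10% in mock libraries. In a principal component analysis of the 6 libraries the first component separated the groups and carried 87.2% of the variance. On the second component, which carried 5.4%, ABA replicate 3 lay at 44.0, whereas ABA replicates 1 and 2 lay at -28.98 and -13.34 and the mock libraries between -1.32 and 0.83. Without ABA replicate 3, 6610 genes rose and 6886 fell, close to the counts with it. Seedling identity was checked with marker lists. Leaf markers such as the RCA gene were among the most abundant transcripts, root markers such as PRP3 were present, and the 6 tested seed storage and embryo markers summed to at most 3.90 CPM in an ABA library and at most 14.4 CPM in a mock library.

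The response took in most of the measured transcriptome. At an adjusted p under 0.05 (edgeR quasi-likelihood test with Benjamini-Hochberg adjustment over the 21151 tested genes), 13685 genes or 64.7% were called, of which 6751 (31.9% of tested genes) rose in ABA seedlings and 6934 (32.8%) fell. At least 2-fold changes were called for 2605 genes that rose (12.3%) and 3510 that fell (16.6%). The background of a list count of genes that rose or fell is 31.9% and 32.8%, and that of a count of at least 2-fold changes is 12.3% and 16.6%. Changes of at least 16-fold were called for 196 genes that rose and 186 that fell. The 3 ABA values lay wholly above or wholly below the 3 mock values for 14454 genes (68.3%). Genes at least 2-fold higher supplied 27.2 to 29.3% of the counted fragments of tested genes in ABA libraries, against 6.91 to 7.15% in mock libraries, and genes at least 2-fold lower supplied 7.47 to 8.24% in ABA libraries, against 25.4 to 26.2% in mock libraries. The median log2 fold change over all tested genes was -0.01. Upper-quartile scaling moved that median to -0.15 and the split of calls to 5484 higher and 8149 lower genes, so that 40.2% of calls were higher instead of 49.3%. A gene is said to rise or fall only where it was called, and every gene given with its 6 values was called unless its groups are said to overlap. Fold changes are from the main scaling (trimmed mean of M values), on which CPM values also rest, and ± beside a log2 fold change is its standard error.

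**Figure D1:**
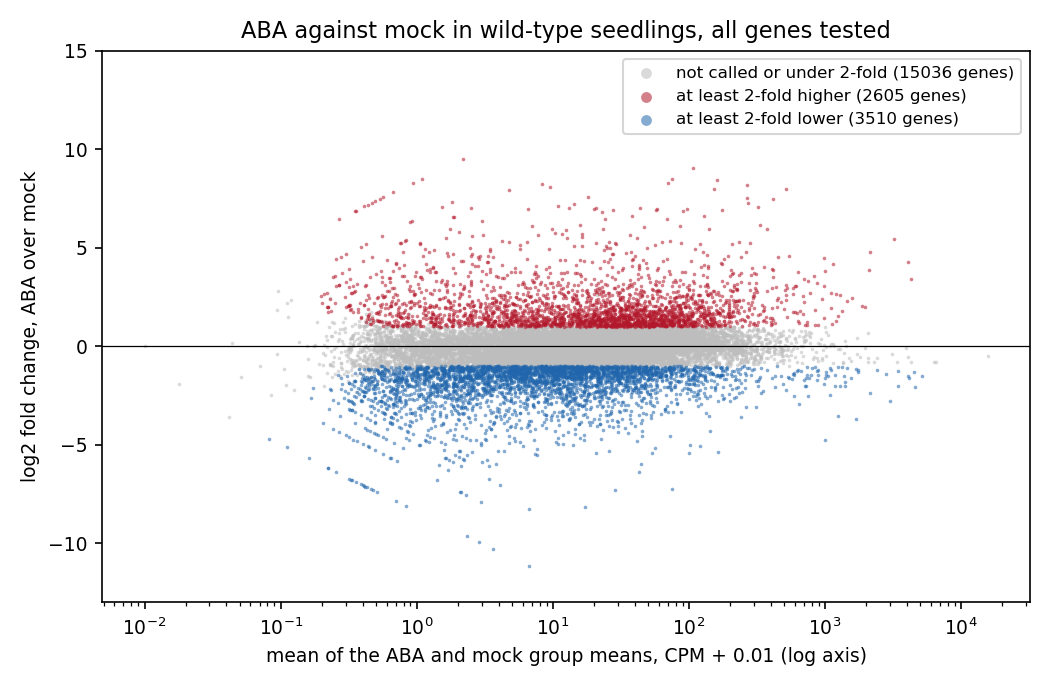
Log2 fold change of ABA over mock for the 21151 tested genes against the mean of the group means in CPM + 0.01 (log axis). Red points are the 2605 genes called at least 2-fold higher in ABA seedlings, blue points the 3510 called at least 2-fold lower, and grey points all others.

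Direction varied with abundance, taken as the mean CPM of all 12 libraries without the main scaling. Among the 2288 genes with a mean of 1 to 3 CPM, 273 were at least 2-fold higher and 656 at least 2-fold lower, whereas among the 5201 genes with 30 to 100 CPM the counts were 714 higher and 519 lower. The 388 genes at 300 CPM and over were even, with 85 higher and 83 lower. The 5 nuclear chromosomes had medians between -0.02 and 0.00. Classes of noncoding RNA differed in their counts. Of 104 tested genes annotated as ncRNA, 46 (44.2%) rose and 14 (13.5%) fell, with a median log2 fold change of 0.47. Of 23 small nucleolar RNAs 8 (34.8%) rose and 1 (4.35%) fell, against 31.9% and 32.8% of all tested genes. Of 84 genes annotated as lncRNA 19 rose and 15 fell, with a median of 0.20, and of 20 miRNA genes 4 rose and 7 fell, with a median of -0.31. Whether the RNA was selected for poly(A) tails is not stated, and transcripts without such tails are then counted with unknown efficiency.

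Some transcripts were found in 1 group alone. Of 1089 genes with no fragment in the 3 ABA libraries but some in mock, 26 were tested and 24 called, and of 733 genes with none in the 3 mock libraries, 13 were tested and all 13 called. The receptor kinase gene CRK30 (AT4G11460) had 14, 17.3 and 8.92 CPM in mock seedlings and no fragment in any ABA library, which puts it at least 240-fold lower in ABA seedlings when 3 fragments are granted to the ABA group. By the same reckoning the cytochrome P450 gene CYP712A2 was at least 129-fold lower and the cysteine proteinase gene AT2G27420 at least 82.1-fold lower. In the other direction, CBF4, a DREB-class factor of drought and cold responses, had 3.82, 4.85 and 4.44 CPM in ABA seedlings and no fragment in mock seedlings, so that it was at least 88.6-fold higher. GA20OX5, a late gibberellin synthesis gene, was at least 43.5-fold higher. HSP21, a plastid small heat shock protein, had 2.14, 0.0591 and 1.74 CPM in ABA seedlings and no fragment in mock seedlings. Its bound of at least 27.1-fold rests on ABA replicates 1 and 3, since replicate 2 lay under the floor of 3 fragments. These genes, and those of the chromosome runs of GSTU, SAUR, FRO and AZI1 genes, were picked after their values had been seen.

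The largest gains in CPM belonged to protective proteins and to a few enzymes. COR47, a dehydrin that shields membranes and proteins in drying cells, had 8059.7, 7666 and 7866 CPM in ABA seedlings, against 649.7, 764 and 781 CPM in mock seedlings, with no overlap. ADC2, the arginine decarboxylase that starts putrescine synthesis, had 9351, 6700.0 and 7141 CPM in ABA seedlings, against 421, 414 and 368 CPM in mock seedlings. Every ABA value of both genes was several times every mock value. LTI78 (RD29A), LTI30, KIN2, ERD10, ERD14 and COR413-PM1 made up most of the other top gains, with log2 fold changes of 2.07 (ERD14) to 5.44 (LTI78). NIA2, the main nitrate reductase, had 3976, 3007 and 2565 CPM in ABA seedlings, against 860.0, 833 and 673 CPM in mock seedlings. SIP3, a CBL-interacting protein kinase, had 2521, 2306 and 2379 CPM in ABA seedlings, against 504, 463 and 505 CPM in mock seedlings.

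The largest losses in CPM were all photosynthetic. Rubisco activase (RCA), which keeps the carbon-fixing enzyme active, had 1789.9, 1733 and 1703 CPM in ABA seedlings, against 7217, 7544 and 7367 CPM in mock seedlings, a log2 fold change of -2.08 ± 0.10. CAB2, a light-harvesting protein of photosystem II, had 806, 745 and 731 CPM in ABA seedlings, against 4879.9, 5636 and 5356 CPM in mock seedlings. LHCA1, its counterpart at photosystem I, had 2754, 2983 and 2145 CPM in ABA seedlings, against 6227, 6415 and 6611 CPM in mock seedlings. The 2 groups stood well apart for all 3 genes. CAB1 was more abundant than these 3 and had a smaller log2 fold change, -0.50 ± 0.13, with 12358, 15137 and 11560.0 CPM in ABA seedlings, against 17425, 18823 and 18798 CPM in mock seedlings. All 10 genes with the largest losses encoded light-harvesting proteins (CAB1, CAB2, CAB3, LHB1B2, LHCB3, LHCB5, LHCA1, LHCA4), RCA or the Rubisco small subunit RBCS1A. The counting had no option for multiply mapped reads. Fragments that match several of the near-identical CAB1, CAB2 and CAB3 copies, or several RBCS copies, may therefore be missing. Because whole seedlings were sampled, fewer cells of a type and less RNA per cell cannot be told apart in this or any other result. Of the 10 mesophyll and leaf markers, 5 are among the 10 genes with the largest losses. These markers summed to 22790, 26410 and 23550 CPM in ABA seedlings, against 52750, 56320 and 51980 CPM in mock seedlings. The part of leaf cell number was not tested.

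Promoter sequence was read for 32834 nuclear genes as 250 bases before to 50 bases after the RefSeq gene start (TAIR10.1), and 10 short motifs were searched on both strands. The ACGT motifs were more frequent among genes that rose. ACGTGTC, an ABA-responsive element (ABRE 2 in the plot of motif shares), was in 11% of the promoters of genes at least 2-fold higher, 3.72% of those at least 2-fold lower, 3.85% of tested genes not called and 3.94% of all promoters. ACGTGGC, another form of the element (ABRE 1), was in 7.57%, 4.47%, 3.66% and 3.65% of the same sets. The G-box CACGTG, which can overlap either form, was in 15.4%, 6.82%, 7.69% and 6.90%. Among the 196 genes at least 16-fold higher, ACGTGTC stood in 29.6% of promoters and CACGTG in 34.7%. Seen from the promoter side, 26.8% of tested genes with ACGTGTC were at least 2-fold higher, against 11.6% of those without it.

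The evening element AAAATATCT, through which clock proteins act, was in 4.73% of promoters of genes at least 2-fold higher, 2.75% of those at least 2-fold lower and 2.51% of those not called. The telo box AAACCCTA and the site II motif GGCCCA, both common in promoters of translation genes, were scarcer in both responding sets than in genes not called: the telo box was in 3.69% of genes at least 2-fold higher, 3.21% of those at least 2-fold lower and 6.96% of those not called, and site II in 11.1%, 11.7% and 21.7%. The DRE core CCGAC was in 17.7%, 12.6% and 16.1% of these sets. The W-box core TTGAC was in 54.1%, 52.1% and 51.1%, the CCA1 binding site AAAAATCT in 7.65%, 8.51% and 7.5%, and the heat shock motif GAANNTTC in 11.9%, 12.2% and 11.5%, so that these 3 hardly differed between the sets. A match is a string of letters and does not show that a factor binds there.

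**Figure D2:**
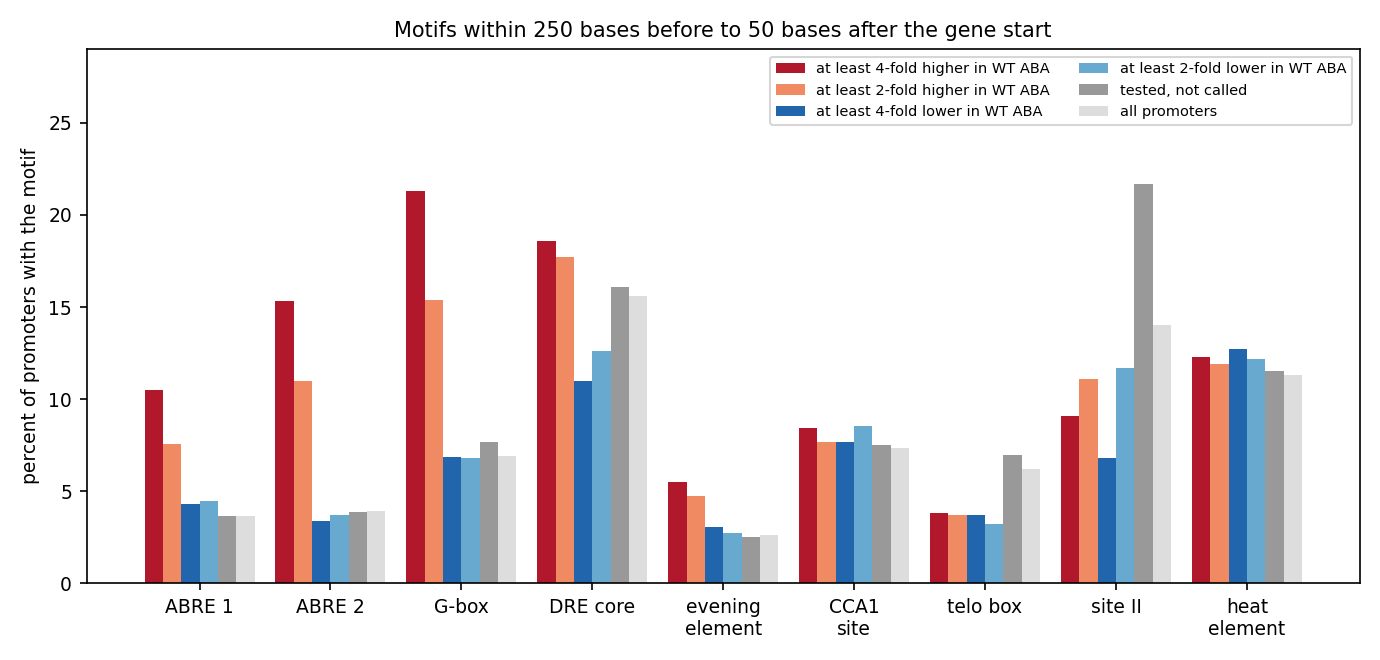
Percent of promoters holding each motif on either strand (vertical axis), for genes at least 4-fold and at least 2-fold higher in ABA seedlings, at least 4-fold and at least 2-fold lower, tested but not called, and for all promoters. The ABRE and G-box bars stand highest for the genes that rose, and the telo box and site II bars for genes that were not called.

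Promoter stretches are shown for 2 evening-phased genes and 1 morning-phased gene of the circadian clock, and for 3 of the most strongly ABA-raised genes. The stretches were picked by hand and do not stand for their sets. Of the promoters of genes at least 16-fold higher, 29.6% held ACGTGTC and 15.3% held ACGTGGC. Capitals mark matches on either strand to the evening element, either ABRE form, the G-box or the DRE core, and each stretch is read 5′ to 3′ on the strand of its gene (RefSeq, TAIR10.1). GRP7, an evening clock output, carries 3 evening elements close to the gene start. BOA carries 1 evening element among 4 ABRE forms, and CCA1, which fell, carries a G-box inside a palindrome of ACGTGTC. The other 3 hold several ACGT motifs each.
GRP7: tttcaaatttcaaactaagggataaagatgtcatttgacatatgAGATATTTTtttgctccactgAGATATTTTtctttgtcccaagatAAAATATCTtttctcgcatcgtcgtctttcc
BOA: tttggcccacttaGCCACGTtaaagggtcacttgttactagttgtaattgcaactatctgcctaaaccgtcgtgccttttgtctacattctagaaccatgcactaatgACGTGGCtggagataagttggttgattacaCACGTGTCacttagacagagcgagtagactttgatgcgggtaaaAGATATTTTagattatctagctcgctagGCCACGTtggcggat
CCA1: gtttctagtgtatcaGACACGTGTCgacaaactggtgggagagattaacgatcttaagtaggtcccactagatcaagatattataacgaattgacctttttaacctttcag
AT5G05220: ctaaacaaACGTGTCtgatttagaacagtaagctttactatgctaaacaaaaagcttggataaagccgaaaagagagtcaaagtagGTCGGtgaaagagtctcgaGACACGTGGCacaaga
PUB19: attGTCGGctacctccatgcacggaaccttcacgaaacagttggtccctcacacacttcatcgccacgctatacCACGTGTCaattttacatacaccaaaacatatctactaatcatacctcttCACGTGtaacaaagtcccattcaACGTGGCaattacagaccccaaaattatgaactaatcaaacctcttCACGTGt
LDAP2: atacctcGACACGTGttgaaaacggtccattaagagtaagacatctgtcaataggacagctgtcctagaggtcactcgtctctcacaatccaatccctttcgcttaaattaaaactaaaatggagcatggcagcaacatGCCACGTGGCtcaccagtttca
GRP7 lies at chr2:9266558-9266677 on the minus strand. The plus-strand stretches are BOA at chr5:24003663-24003887, CCA1 at chr2:19245381-19245491, AT5G05220 at chr5:1550011-1550131, PUB19 at chr1:22198066-22198265 and LDAP2 at chr2:19569830-19569990.

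The last 3 of these genes had among the steepest gains. AT5G05220, an uncharacterized protein, had 17, 14.5 and 17.9 CPM in ABA seedlings, against 0, 0.0951 and 0.0528 CPM in mock seedlings. PUB19, a ubiquitin ligase known to damp ABA and drought responses, had 204, 161 and 144 CPM in ABA seedlings, against 5.38, 3.04 and 5.28 CPM in mock seedlings, a log2 fold change of 5.22 ± 0.22. LDAP2, a lipid droplet-associated protein, had 38.6, 43.5 and 39.4 CPM in ABA seedlings, against 1.15, 0.475 and 1.58 CPM in mock seedlings, with exons that share positions with a neighbouring gene. No ABA value of these 3 genes came near a mock value. Further genes without a symbol were among the steepest of all. AT5G28520, annotated as a mannose-binding lectin, had 241, 165 and 233 CPM in ABA seedlings, against 0.432, 0.475 and 0.264 CPM in mock seedlings. AT1G10585, a basic helix-loop-helix protein, had 111, 72.4 and 234 CPM in ABA seedlings, against 0.480, 0.475 and 0.370 CPM in mock seedlings, with ABA replicate 3 highest. These are 531-fold and 310.0-fold gains. In the opposite direction AT2G15020, uncharacterized, had 0.232, 0.118 and 0 CPM in ABA seedlings, against 28.1, 29.3 and 45.2 CPM in mock seedlings. AT1G13650, also uncharacterized, had 0.463, 0.355 and 0.264 CPM in ABA seedlings, against 47.6, 44.7 and 79.3 CPM in mock seedlings.

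Clock genes of the evening were higher and clock genes of the morning lower in ABA seedlings. All 9 evening-phased clock genes rose, with a median log2 fold change of 2.68, and 10 of 11 morning-phased clock genes fell, with a median of -1.76, against a background of 31.9% rising and 32.8% falling over all tested genes. Summed over the list, evening genes had 954, 809.9 and 693 CPM in ABA seedlings, against 261, 271 and 217 CPM in mock seedlings. Morning genes summed to 479.6, 439 and 336 CPM in ABA seedlings, against 832, 779 and 828 CPM in mock seedlings. The summed values of the 2 groups overlapped in neither list. TOC1, an evening repressor of the morning genes, had 224.8, 191 and 140.4 CPM in ABA seedlings, against 41.6, 38.9 and 33.8 CPM in mock seedlings, a log2 fold change of 2.28 ± 0.15 (adjusted p = 1.4e-08). BOA, a paralogue of the evening complex subunit LUX, had 28, 23.7 and 19.1 CPM in ABA seedlings, against 1.59, 1.05 and 0.686 CPM in mock seedlings. That was the steepest gain of the list. LUX itself (PCL1 in the annotation) had 196, 169 and 171 CPM in ABA seedlings, against 20.3, 24.9 and 16.4 CPM in mock seedlings. FKF1, an evening F-box blue-light receptor, had 76.3, 68.5 and 56.1 CPM in ABA seedlings, against 7.16, 8.41 and 6.97 CPM in mock seedlings. Within the ABA group replicate 1 was highest and replicate 3 lowest for TOC1, BOA and FKF1. ELF4, ELF3, PRR3, GI and PRR5 completed the list, with PRR5 moving least at 0.63 ± 0.16.

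Of the morning genes, LHY, a MYB-type repressor at dawn, had 1.16, 1.54 and 1.16 CPM in ABA seedlings, against 16.4, 16 and 17.1 CPM in mock seedlings, a log2 fold change of -3.68 ± 0.14 (adjusted p = 4.7e-11). Its partner CCA1 had 16.9, 14.4 and 10.5 CPM in ABA seedlings, against 54.4, 48.7 and 60.2 CPM in mock seedlings. In both genes every ABA library lay under every mock library. RVE8, a related activator, had 2.32, 2.42 and 2.7 CPM in ABA seedlings, against 13.8, 12 and 14.4 CPM in mock seedlings. PRR9, the earliest of the pseudo-response regulators, had 11.2, 7.63 and 5.39 CPM in ABA seedlings, against 37, 32.7 and 41 CPM in mock seedlings. LNK2 and LNK3, coactivators of RVE8, changed by -1.76 ± 0.16 and -2.33 ± 0.15. PRR7, which peaks later in the morning than PRR9, moved far less, with 196, 162 and 115 CPM in ABA seedlings, against 221, 227 and 203 CPM in mock seedlings, and its call was lost without mock replicate 1, without mock replicate 2 or without ABA replicate 3 (log2 fold changes of -0.45, -0.44 and -0.28). RVE6 was the only morning-phased gene that rose, with 26.9, 25 and 29.3 CPM in ABA seedlings, against 11.6, 12 and 12.7 CPM in mock seedlings.

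Output genes of the clock were less uniform. COR27 and COR28 are repressors with evening phase. COR27 had 100.3, 99.5 and 77.5 CPM in ABA seedlings, against 1.15, 1.57 and 1.37 CPM in mock seedlings. COR28 had 56.7, 53.8 and 39.7 CPM in ABA seedlings, against 1.78, 2.61 and 2.59 CPM in mock seedlings. Their groups lay far apart, and both rose. GRP7, an RNA-binding protein of the evening, had 1741, 1915 and 1479 CPM in ABA seedlings, against 625, 741 and 719 CPM in mock seedlings, while its relative GRP8 (CCR1 in the annotation) had 307, 322 and 336 CPM in ABA seedlings, against 778, 852 and 921 CPM in mock seedlings and so changed in the other direction. CAT3, a catalase with evening phase, fell too, by 0.58 on the log2 scale. Among 8 morning outputs 4 fell, led by EPR1 (RVE7) at -2.46 ± 0.15 and BBX19 at -1.84 ± 0.15, RVE2 rose, and CDF1, CDF2 and CDF5, which delay flowering, did not pass the test. Evening element strings were in the window of 5 of 9 evening-phased clock genes and of 1 of 11 morning-phased clock genes, against 2.61% of all promoters. They were also in the window of all 5 evening and night outputs, of which 3 rose and 2 fell, and of 1 of 8 morning outputs. A CACGTG string was in 8 of the 11 morning-phased and 2 of the 9 evening-phased promoters, against 6.90% of all promoters. The ABRE form ACGTGGC was in 5 of the 11 morning-phased and 4 of the 9 evening-phased promoters, against 3.65% of all promoters. ACGTGTC was in 5 of the 11 and 3 of the 9, against 3.94%.

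**Figure D3:**
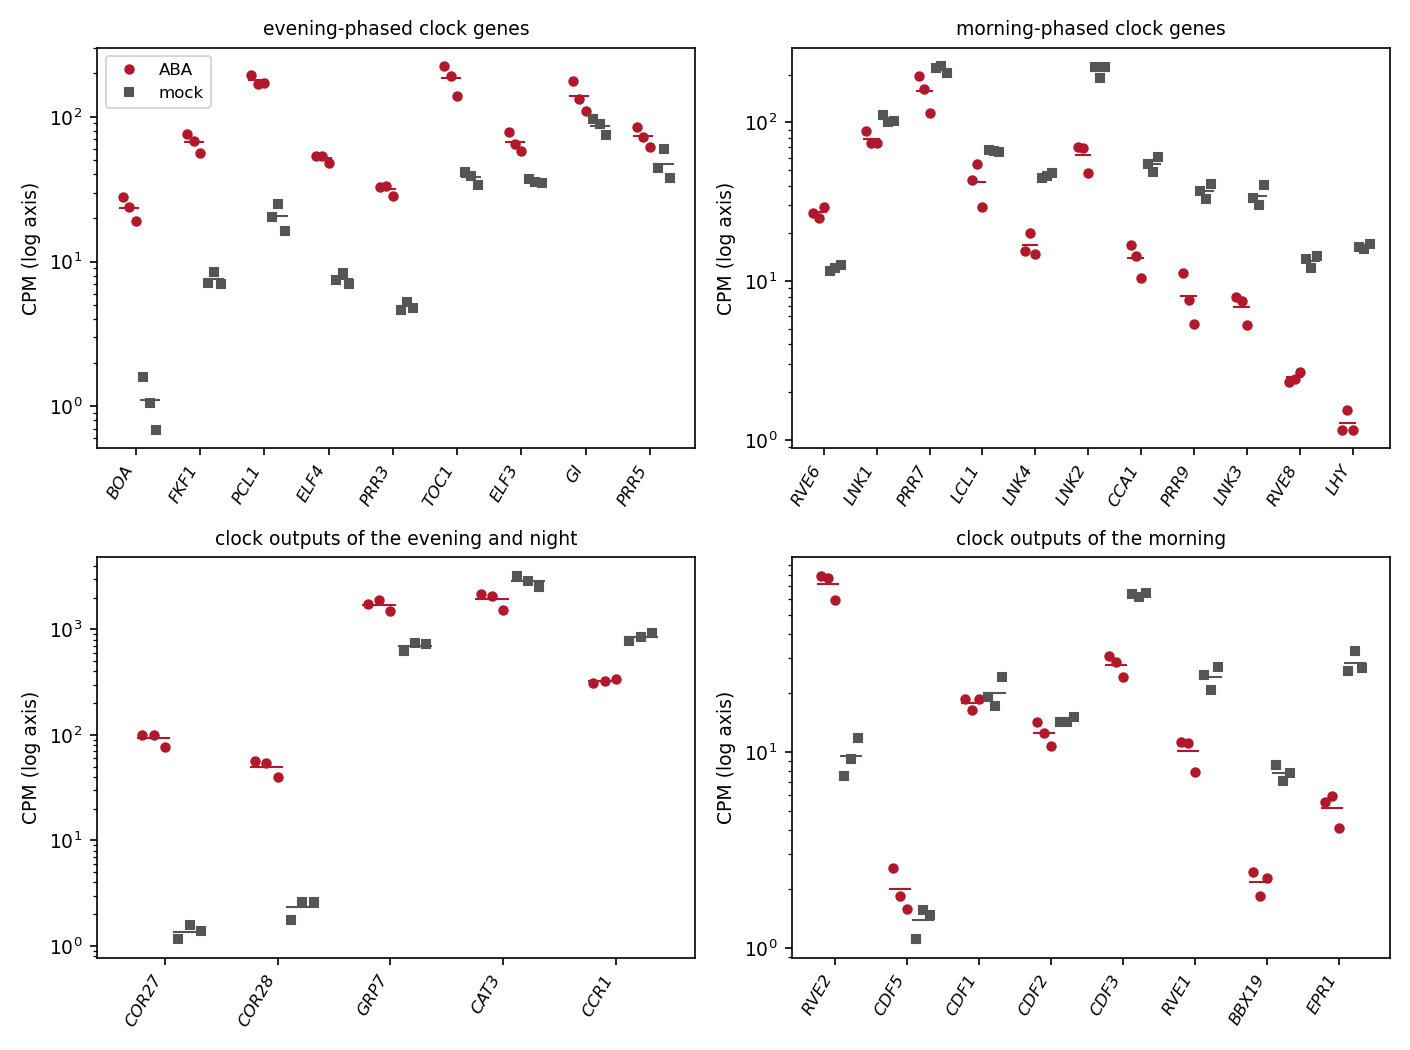
CPM (log axis) of clock genes and clock output genes in each library, ABA as red circles and mock as grey squares, with the group mean as a bar. All 9 evening-phased genes had a higher ABA mean and 10 of 11 morning-phased genes a lower one, while the outputs went both ways.

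Other genes that move with time of day, light or handling gave a mixed picture. Of 29 photoreceptor and light signalling genes, 6 (20.7%) rose, 12 (41.4%) fell and 11 did not pass the test. PHOT1 and PHOT2, the blue-light receptors that steer phototropism, changed by -2.12 ± 0.16 and -2.08 ± 0.17, and CRY1 by -1.56 ± 0.14, while PIF3, a phytochrome-interacting factor, was at 139 ± 6.06 CPM in ABA seedlings and 24.2 ± 3.79 CPM in mock seedlings. PHYB had 73.9, 62.2 and 65.5 CPM in ABA seedlings, against 69.5, 65.3 and 62.9 CPM in mock seedlings, with overlapping groups. Of 16 touch and wounding genes 8 rose and 3 fell, or 5 rose without mock replicate 3. TCH4, a touch-induced xyloglucan enzyme, had 1012, 757 and 503 CPM in ABA seedlings, against 131, 143 and 148 CPM in mock seedlings. JAZ1, a jasmonate repressor, had 285, 215 and 287 CPM in ABA seedlings, against 44, 31.3 and 38.3 CPM in mock seedlings. The calmodulin-like genes TCH2 and TCH3 and the early wounding factors STZ (ZAT10) and WRKY33 gave log2 fold changes of -0.48, 0.26, 0.24 and 0.05, of which TCH2 alone was called. Its call was lost when any 1 of 5 libraries (all but ABA replicate 3) was left out, with log2 fold changes of -0.52 to -0.35. The part of time, light and handling in any result here was not tested, and no mock library of a later time was analysed here.

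Genes of carbon starvation rose and genes of starch storage fell. Of 16 genes known to respond to sugar starvation or darkness, 14 rose, 11 of them at least 2-fold, and 1 fell, with a median log2 fold change of 1.8. EXL2, an EXORDIUM-like protein, had 1657, 1516 and 1398 CPM in ABA seedlings, against 133, 139.6 and 116 CPM in mock seedlings. DIN2, a dark-inducible beta-glucosidase, had 188, 115 and 89.8 CPM in ABA seedlings, against 6.2, 5.47 and 6.86 CPM in mock seedlings. BCAT-2, a branched-chain amino acid transaminase, had 78.3, 74.3 and 20.6 CPM in ABA seedlings, against 8.84, 8.7 and 6.18 CPM in mock seedlings. Here ABA replicate 3 was far below the other ABA libraries, yet above every mock library. Autophagy genes, which recycle cell contents, rose in 21 of 29 cases and fell in 1, or in 0 under 11 of 14 alternatives, among them leaving out any 1 library, with a median of 0.65. ATG8H, which coats the autophagosome, had 109, 99.6 and 98.3 CPM in ABA seedlings, against 22.9, 23.1 and 22.3 CPM in mock seedlings.

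Genes that burn fatty acids in the peroxisome followed, with 16 of 20 rising and 1 falling, or 2 under upper-quartile scaling. ACX1, an acyl-CoA oxidase of the first step, had 1081, 814 and 908 CPM in ABA seedlings, against 118, 107 and 95.1 CPM in mock seedlings. CSY2, the peroxisomal citrate synthase, had 227, 189.7 and 194 CPM in ABA seedlings, against 53, 57.5 and 48.8 CPM in mock seedlings. The exception was PMDH2, the peroxisomal malate dehydrogenase, with 398, 431 and 326 CPM in ABA seedlings, against 826, 905 and 942 CPM in mock seedlings. In starch synthesis 13 of 17 genes fell and 2 rose, or 1 without ABA replicate 3 or under upper-quartile scaling. GBSS1, which makes amylose, had 16.4, 13.4 and 14.6 CPM in ABA seedlings, against 105, 73.3 and 90.9 CPM in mock seedlings. DBE1, a debranching enzyme component, had 15.2, 16.4 and 15.9 CPM in ABA seedlings, against 68.1, 68.9 and 62.5 CPM in mock seedlings. Starch breakdown split, with 7 genes rising and 8 falling of 20. AMY2, an alpha-amylase, had 32.1, 34 and 55.2 CPM in ABA seedlings, against 12.9, 9.41 and 10.5 CPM in mock seedlings, whereas DPE2, which handles maltose in the cytosol, had 93.1, 77.9 and 90.3 CPM in ABA seedlings, against 280.4, 275 and 266 CPM in mock seedlings. Of 16 tested trehalose genes 9 rose and 5 fell, and TPPD, a trehalose-phosphate phosphatase, had 25.5, 18.8 and 16.8 CPM in ABA seedlings, against 2.88, 4.04 and 2.9 CPM in mock seedlings, while TPS1, the main synthase, had 28.7, 27.5 and 25.3 CPM in ABA seedlings, against 58.5, 56.5 and 61.2 CPM in mock seedlings. The last step of oil synthesis was among the gains: TAG1 (DGAT1), which joins the final acyl chain, had 163, 124 and 118 CPM in ABA seedlings, against 16.9, 17.5 and 13.6 CPM in mock seedlings, and 8 of 16 oil and lipid droplet genes rose with none falling, although 1 fell without ABA replicate 1 and 3 under upper-quartile scaling. In contrast the desaturases FADA and FAD8 of the plastid changed by -2.64 ± 0.13 and -2.11 ± 0.12, both with exons that share positions with a neighbour, and of 24 fatty acid synthesis and desaturation genes 6 rose and 9 fell, or 14 fell under upper-quartile scaling. Of the energy sensors, KING1, a regulatory subunit of SnRK1, had 212 ± 11.6 CPM in ABA seedlings and 85.8 ± 3.86 CPM in mock seedlings (SD, n = 3 each). Mitochondrial carriers rose in 16 and fell in 9 of 35 cases. BAC2, which moves basic amino acids, had 27.7, 25.3 and 29.7 CPM in ABA seedlings, against 0.913, 0.333 and 1.16 CPM in mock seedlings. BOU, known for its part in photorespiration, had 22.1, 22.8 and 29.3 CPM in ABA seedlings, against 79.5, 84.6 and 81.1 CPM in mock seedlings. Of 25 tested sugar transporters 10 rose and 7 fell. SWEET4, a sugar exporter, had 77.8, 70.8 and 70.5 CPM in ABA seedlings, against 2.11, 1.05 and 1.16 CPM in mock seedlings. MSS1 (STP13), a hexose importer, had 451, 361 and 389.8 CPM in ABA seedlings, against 62, 49.9 and 48.8 CPM in mock seedlings.

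Genes that build and run the plastid were mostly lower. Of 23 chlorophyll synthesis genes 20 fell, 16 of them at least 2-fold, and 1 rose, with a median log2 fold change of -1.68. GUN5, a subunit of magnesium chelatase, had 384, 316 and 282 CPM in ABA seedlings, against 1904, 1873 and 1734 CPM in mock seedlings. GUN4, its activator, had 22.1, 23.7 and 20.7 CPM in ABA seedlings, against 268, 238 and 276 CPM in mock seedlings. HEMA2, a minor form of glutamyl-tRNA reductase, was the gene that rose. All 15 genes of plastid transcription and its regulators fell, 11 of them at least 2-fold. GLK1 (GPRI1 in the annotation), a master factor of chloroplast genes, had 17.8, 18.4 and 19.1 CPM in ABA seedlings, against 142, 125 and 124 CPM in mock seedlings. GNC, a GATA factor of greening, had 3.65, 3.49 and 4.34 CPM in ABA seedlings, against 22.2, 25 and 25.9 CPM in mock seedlings. The carotenoid genes shared the direction in 10 of 14 cases. PSY, phytoene synthase, had 60.05, 58 and 56.8 CPM in ABA seedlings, against 248, 255 and 258 CPM in mock seedlings. NCED4 (CCD4), which cleaves carotenoids, had 7.47, 11.1 and 4.44 CPM in ABA seedlings, against 332, 309 and 312 CPM in mock seedlings.

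Chlorophyll breakdown and senescence genes went the other way, with 11 of 16 at least 2-fold higher and 3 at least 2-fold lower. SAG21, a late embryogenesis abundant-like protein, had 1298, 1302 and 1261 CPM in ABA seedlings, against 106, 137 and 117 CPM in mock seedlings. NAC6 (ORE1), a senescence factor, had 179, 151 and 144 CPM in ABA seedlings, against 15, 14.8 and 15.7 CPM in mock seedlings. The 3 that fell were WRKY53, CLH1 and ACD2. Chloroplast-encoded genes had a median of -0.93, and 17 of 79 fell with none rising. That count rested on single libraries: it was 4 without mock replicate 2, 9 without ABA replicate 1 and 40 when the 6 wild-type libraries were fitted alone. Organelle genes took 0.0439 to 0.0668% of fragments in ABA libraries, against 0.101 to 0.157% in mock libraries. Among proteins that serve the organelles from the nucleus, 60 of 256 pentatricopeptide repeat genes (23.4%) fell and 35 (13.7%) rose, against 32.8% and 31.9% of all tested genes, with a median of 0.00. Aminoacyl-tRNA synthetases fell in 23 and rose in 8 of 52 cases. AT3G01060, annotated as a lysine-tRNA ligase, had 9.38, 7.51 and 9.2 CPM in ABA seedlings, against 94, 102 and 92.6 CPM in mock seedlings.

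Lists of cell wall genes moved to different degrees. Of 17 alpha-expansins, proteins that loosen the wall, 12 fell, 11 of them at least 2-fold, and 1 rose, or 2 under 4 of 14 alternatives. EXPA8 had 0.984, 1.36 and 0.582 CPM in ABA seedlings, against 159, 131 and 156 CPM in mock seedlings. EXPA1 had 11.5, 11 and 18.5 CPM in ABA seedlings, against 273, 279.8 and 261 CPM in mock seedlings. EXPA16 was the gene that rose, with 193, 237 and 146 CPM in ABA seedlings, against 1.83, 1.43 and 1.32 CPM in mock seedlings. Extensins, structural wall glycoproteins of root hairs among other cells, fell in 11 of 14 cases, with EXT10 at 4.92, 5.38 and 9.62 CPM in ABA seedlings, against 67.3, 57.5 and 62.1 CPM in mock seedlings. Xyloglucan endotransglucosylases divided into 12 that rose and 12 that fell of 30. XTH31 had 1.85, 2.48 and 4.76 CPM in ABA seedlings, against 109.5, 101 and 121 CPM in mock seedlings, whereas XTH24 had 1119.8, 1093 and 885 CPM in ABA seedlings, against 152, 136 and 108 CPM in mock seedlings. Tubulins and kinesins, which build and use microtubules, fell in 40 and rose in 9 of 59 cases. TUB1 had 14.5, 16.4 and 14.6 CPM in ABA seedlings, against 65.3, 56.4 and 73.7 CPM in mock seedlings, but TUB9 had 288, 274 and 278 CPM in ABA seedlings, against 111, 117 and 114 CPM in mock seedlings.

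Suberin genes rose for the most part: 15 of 21 rose, 13 of them at least 2-fold, and none fell, or 1 under upper-quartile scaling or with the 6 wild-type libraries alone. Suberin is the waxy polyester that seals root endodermis and periderm. MYB41, a factor known to switch suberin on, had 14.1, 15.7 and 11.9 CPM in ABA seedlings, against 1.44, 0.713 and 1.11 CPM in mock seedlings. GPAT7, an acyltransferase, had 30.3, 34.8 and 25.3 CPM in ABA seedlings, against 5.91, 5.66 and 4.8 CPM in mock seedlings. KCS2, which elongates very long fatty acids, had 335, 299 and 322 CPM in ABA seedlings, against 36, 27.3 and 33.1 CPM in mock seedlings. ABCG1 and ABCG16, which were counted among the ABC transporters and not among these suberin genes, changed by 4.00 ± 0.16 and 4.10 ± 0.20. Lignin genes went both ways, with 4 rising and 7 falling of 17. FAH1, which leads to syringyl lignin, had 31.3, 35.1 and 39.97 CPM in ABA seedlings, against 182, 158 and 175 CPM in mock seedlings. GDSL lipases, a large family of wall and lipid esterases, fell in 31 and rose in 10 of 60 cases, with a median of -0.48. Arabinogalactan proteins fell in 22 and rose in 10 of 42. AGP2 had 559, 477 and 447 CPM in ABA seedlings, against 70.3, 65.2 and 72.2 CPM in mock seedlings. FLA9, a fasciclin-like member, had 28, 30.7 and 22.1 CPM in ABA seedlings, against 119.8, 126 and 118 CPM in mock seedlings.

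**Figure D4:**
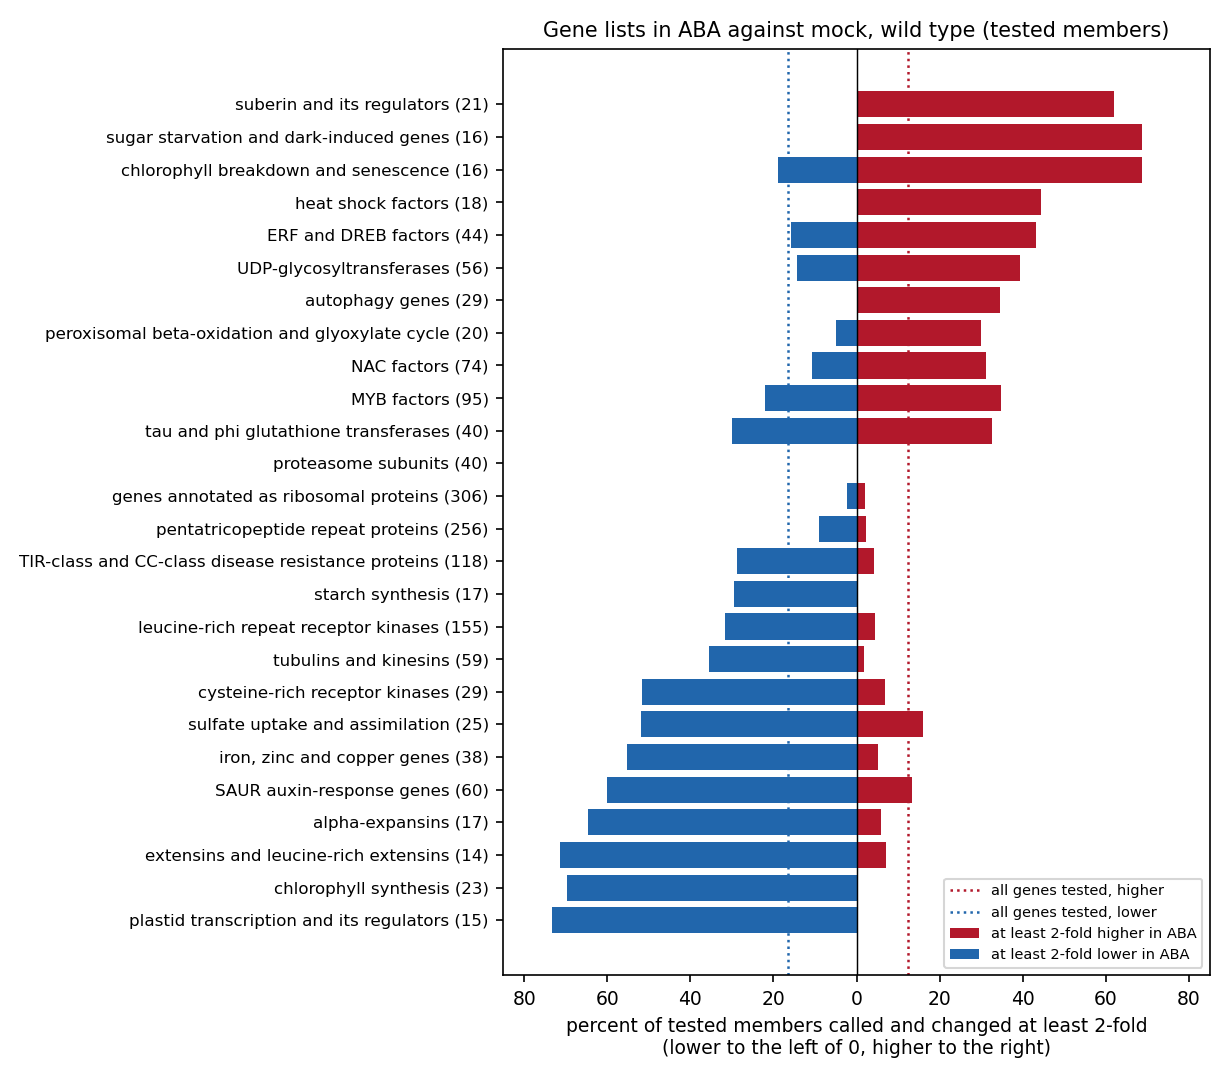
Percent of the tested members of 26 gene lists (number of tested members in brackets) called at least 2-fold higher (red, right) or at least 2-fold lower (blue, left) in ABA seedlings, with dotted lines at the shares over all tested genes (12.3% higher, 16.6% lower). Suberin, starvation and chlorophyll breakdown lists extend to the right, and plastid, expansin, extensin and SAUR lists to the left.

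Genes of the growth hormones went both ways, list by list. Of 60 tested SAUR genes, early auxin-response genes whose products promote cell expansion, 39 fell, 36 of them at least 2-fold, and 11 rose, with a median log2 fold change of -1.8. A run of 5 neighbours on chromosome 1 (10301377 to 10308246), SAUR61 to SAUR65, was low throughout. SAUR62 had 0.0579, 0.473 and 0.529 CPM in ABA seedlings, against 5.91, 7.37 and 6.65 CPM in mock seedlings. SAUR64 had 0.174, 0.769 and 1.0 CPM in ABA seedlings, against 6.29, 7.27 and 6.39 CPM in mock seedlings. SAUR copies resemble each other closely, and the counting had no option for multiply mapped reads. Fragments that match several copies may therefore be missing from these values. SAUR36, known for its link to senescence, had 21.5, 21.3 and 27.4 CPM in ABA seedlings, against 6.58, 7.75 and 6.02 CPM in mock seedlings and thus rose. Of 8 tested GH3 genes, which encode hormone-conjugating enzymes, 2 rose and 2 fell. GH3.9 had 0.405, 0.296 and 0.423 CPM in ABA seedlings, against 8.69, 9.51 and 8.98 CPM in mock seedlings. BRU6 (GH3.2) had 19.6, 22.6 and 40.2 CPM in ABA seedlings, against 5.62, 13.5 and 6.23 CPM in mock seedlings. WES1 (GH3.5) had 66.3, 72 and 70.7 CPM in ABA seedlings, against 55.1, 46.1 and 38.7 CPM in mock seedlings. The last 2 are the members that rose.

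For cytokinin, synthesis and breakdown genes fell in 12 and rose in 5 of 22 cases. CYP735A2, which makes trans-zeatin forms, had 0.753, 0.710 and 0.687 CPM in ABA seedlings, against 6.05, 5.04 and 6.81 CPM in mock seedlings. LOG7, which frees the active base, had 56.5, 51.3 and 38.6 CPM in ABA seedlings, against 15.9, 18.6 and 16.4 CPM in mock seedlings. Cytokinin signalling genes went both ways, with 11 rising and 10 falling of 28 and a median of -0.02. RR5, a type-A response regulator induced by cytokinin, had 5.04, 7.87 and 8.72 CPM in ABA seedlings, against 19.9, 19.3 and 27.7 CPM in mock seedlings. Ethylene genes rose in 14 and fell in 6 of 26 cases. ERS2, a receptor, had 64.2, 52.4 and 41.1 CPM in ABA seedlings, against 12.2, 8.51 and 9.29 CPM in mock seedlings. ACS7, a synthesis enzyme, had 21.9, 23.7 and 22.8 CPM in ABA seedlings, against 9.99, 5.94 and 5.91 CPM in mock seedlings. Gibberellin metabolism was mixed, with 4 rising and 6 falling of 15. GA2OX6, which inactivates the hormone, had 146, 108 and 109 CPM in ABA seedlings, against 10.2, 11.7 and 9.45 CPM in mock seedlings. The receptor GID1B had 67, 50.3 and 47.2 CPM in ABA seedlings, against 15.3, 11.4 and 16.4 CPM in mock seedlings, whereas GA3OX1, which makes the active hormone, had 5.1, 3.78 and 3.38 CPM in ABA seedlings, against 9.13, 7.8 and 7.55 CPM in mock seedlings. Brassinosteroid signalling split evenly with 7 rising and 7 falling of 17. BEH1, a BZR-type factor, had 2.26, 3.19 and 2.64 CPM in ABA seedlings, against 29.5, 31.9 and 30.4 CPM in mock seedlings. BSK1, a kinase of the receptor complex, had 121, 124 and 108 CPM in ABA seedlings, against 55.8, 60.5 and 56.4 CPM in mock seedlings. Strigolactone and karrikin genes rose in 10 and fell in 2 of 17 cases, or fell in 5 under upper-quartile scaling. DLK2, a karrikin marker gene, had 38, 39.1 and 46.5 CPM in ABA seedlings, against 4.52, 5.42 and 5.23 CPM in mock seedlings.

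Signalling peptides moved in either direction. Of 83 tested peptide genes 23 (27.7%) rose and 34 (41.0%) fell, against 31.9% and 32.8% of all tested genes. The 3 given here were picked for large changes. RGF9, a root meristem growth factor, had 2.26, 5.03 and 4.02 CPM in ABA seedlings, against 69.6, 89.2 and 103 CPM in mock seedlings. GASA6, a gibberellin-regulated peptide, had 10.7, 7.33 and 3.23 CPM in ABA seedlings, against 213, 204 and 285 CPM in mock seedlings. GASA3 ran the other way, with 12.2, 15.1 and 12.1 CPM in ABA seedlings, against 0, 0 and 0.317 CPM in mock seedlings. No ABA value of these 3 genes overlapped a mock value.

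Transcripts of the metal, sulfate and phosphate lists were mostly lower, and those of nitrogen genes were mixed. Uptake itself was not measured. Of 38 iron, zinc and copper genes 25 fell, 21 of them at least 2-fold, and 7 rose, or 4 under upper-quartile scaling, with a median log2 fold change of -1.32. The 13 root markers summed to 189, 188 and 208 CPM in ABA seedlings, against 354, 303 and 331 CPM in mock seedlings, and the part of root RNA in the results on nutrients was not tested. IRT1, the main root iron importer, had 0.0579, 0.177 and 0.0529 CPM in ABA seedlings, against 7.25, 10.7 and 2.11 CPM in mock seedlings, with mock replicate 3 lowest of its group. NAS1, which makes the metal chelator nicotianamine, had 11.9, 7.69 and 11.7 CPM in ABA seedlings, against 117, 112 and 112 CPM in mock seedlings. FRO6 and FRO7, ferric reductases of leaf cells and chloroplasts, lie side by side on chromosome 5. FRO6 had 6.77, 9.58 and 2.33 CPM in ABA seedlings, against 186, 203 and 207 CPM in mock seedlings. FRO7 had 1.39, 0.887 and 0.740 CPM in ABA seedlings, against 83.5, 77.8 and 94.1 CPM in mock seedlings. BTS, a ubiquitin ligase that restrains the iron deficiency response, had 205, 136 and 106 CPM in ABA seedlings, against 77.5, 69.6 and 69.7 CPM in mock seedlings.

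Sulfate genes fell in 17 and rose in 6 of 25 cases, with a median of -1.20. ATSDI1, a marker of sulfur deficiency, had 2.66, 1.89 and 3.12 CPM in ABA seedlings, against 35.2, 28.9 and 45.4 CPM in mock seedlings. LSU3, another such marker, had 2.14, 2.6 and 3.49 CPM in ABA seedlings, against 23.2, 20.8 and 24.1 CPM in mock seedlings. The sulfate importers SULTR1;1 and SULTR1;2 moved in opposite directions. SULTR1;1, an inducible root importer, had 0.579, 0.414 and 0.529 CPM in ABA seedlings, against 6.39, 4.9 and 6.07 CPM in mock seedlings, while the constitutive importer SULTR1;2 had 715, 659 and 346 CPM in ABA seedlings, against 139, 149 and 146 CPM in mock seedlings, with ABA replicate 3 between mock and the other ABA libraries. Phosphate starvation genes fell in 17 and rose in 4 of 27 cases. SPX1, a phosphate sensor and marker of starvation, had 14.1, 13.9 and 9.25 CPM in ABA seedlings, against 114, 66.8 and 91.9 CPM in mock seedlings. MGDC (MGD3), which replaces phospholipids with galactolipids, had 0.695, 0.769 and 0.634 CPM in ABA seedlings, against 29.98, 13.4 and 17.8 CPM in mock seedlings. RNS1, a ribonuclease also induced by wounding and senescence, had 59.6, 70.8 and 148 CPM in ABA seedlings, against 9.75, 5.99 and 6.86 CPM in mock seedlings.

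In nitrogen metabolism 15 genes rose and 11 fell of 33. AMT1;2, an ammonium importer, had 8.05, 6.98 and 4.49 CPM in ABA seedlings, against 43.1, 38.7 and 34.2 CPM in mock seedlings. GDH2, a glutamate dehydrogenase active when carbon is short, had 2256, 1829 and 1645 CPM in ABA seedlings, against 304, 304 and 282 CPM in mock seedlings. GSR2, a cytosolic glutamine synthetase, had 171, 167 and 157 CPM in ABA seedlings, against 598, 844 and 661 CPM in mock seedlings. Of 24 nitrate and peptide transporters of the NPF family 12 rose and 6 fell. NRT1.8, which unloads nitrate from the xylem, had 38.6, 26.4 and 46.3 CPM in ABA seedlings, against 2.21, 2.04 and 1.48 CPM in mock seedlings. Amino acid transporters rose in 17 and fell in 24 of 54 cases. UMAMIT36 had 0.0579, 0.0591 and 0 CPM in ABA seedlings, against 14.7, 12.5 and 12.7 CPM in mock seedlings, a near loss in all ABA libraries. Of 31 aquaporins 7 rose and 12 fell. NLM1 (NIP1;1) had 3.47, 4.79 and 6.71 CPM in ABA seedlings, against 47.7, 42.5 and 54.6 CPM in mock seedlings. PIP2E, a plasma membrane water channel, had 367, 399 and 444 CPM in ABA seedlings, against 189, 188 and 177 CPM in mock seedlings. Potassium, sodium and anion channels and carriers rose in 12 and fell in 8 of 28 cases. GORK, the outward potassium channel of guard cells, had 71.3, 64.2 and 64.9 CPM in ABA seedlings, against 22.3, 16.2 and 20.3 CPM in mock seedlings. KT2/3, a potassium channel of the phloem, had 6.25, 7.39 and 7.45 CPM in ABA seedlings, against 32.6, 31.1 and 38.9 CPM in mock seedlings.

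Genes of pathogen perception were mostly lower. Of 29 cysteine-rich receptor kinases 19 fell and 2 rose, or 1 without ABA replicate 3 or with the stricter filter on low values, with a median of -1.28. CRK21 had 6.37, 6.62 and 6.03 CPM in ABA seedlings, against 60, 62.3 and 58.8 CPM in mock seedlings. Leucine-rich repeat receptor kinases fell in 92 and rose in 26 of 155 cases, lectin receptor kinases fell in 36 and rose in 12 of 68, and disease resistance proteins of the TIR and CC classes fell in 60 and rose in 17 of 118, or 11 without ABA replicate 1. AT1G51805, a leucine-rich repeat kinase, had 17.9, 17.1 and 21.1 CPM in ABA seedlings, against 137, 152 and 143 CPM in mock seedlings. AT1G62630, a CC-class resistance protein, had 1.27, 1.48 and 1.32 CPM in ABA seedlings, against 17.9, 16.7 and 19.3 CPM in mock seedlings. Of 31 better known immune genes 11 (35.5%) rose and 10 (32.3%) fell, close to the 31.9% and 32.8% of all tested genes. FLS2, the flagellin receptor, had 60.5, 55.9 and 67.8 CPM in ABA seedlings, against 26.4, 25.4 and 23.6 CPM in mock seedlings. EFR, its counterpart for elongation factor Tu, had 17, 11.7 and 18 CPM in ABA seedlings, against 8.17, 7.32 and 5.75 CPM in mock seedlings. Both receptors were thus raised by a little over 1 log2 unit. FRK1, a marker of flagellin signalling, had 0.753, 2.54 and 3.65 CPM in ABA seedlings, against 21.4, 14.3 and 15.9 CPM in mock seedlings. PAD4, a lipase-like regulator of immunity, had 9.73, 10.11 and 8.14 CPM in ABA seedlings, against 23.2, 22.2 and 21.4 CPM in mock seedlings. Among 8 respiratory burst oxidases 3 rose and 4 fell. RBOHD, the oxidase of the immune oxidative burst, had 30.2, 18.9 and 22.4 CPM in ABA seedlings, against 84.5, 77.3 and 66 CPM in mock seedlings, while RBOH F, its partner in guard cell ABA signalling, had 82.9, 63 and 63.9 CPM in ABA seedlings, against 32.5, 31.4 and 31.5 CPM in mock seedlings.

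Detoxification and specialised metabolism went both ways. Of 184 tested cytochrome P450 genes 41 rose and 90 fell. CYP707A1, which breaks down ABA itself, had 524, 468 and 537 CPM in ABA seedlings, against 15.7, 19.2 and 20.6 CPM in mock seedlings. CYP94B3, which inactivates jasmonoyl-isoleucine, had 243, 203 and 379 CPM in ABA seedlings, against 3.07, 5.8 and 4.43 CPM in mock seedlings. The thalianol genes CYP705A5 and CYP708A2, which lie in a metabolic cluster, changed by -2.64 ± 0.31 and -1.48 ± 0.20. UDP-glycosyltransferases rose in 29 and fell in 12 of 56 cases. UGT74E2, which conjugates an auxin precursor, had 308, 258 and 173 CPM in ABA seedlings, against 6.63, 13.7 and 6.23 CPM in mock seedlings. UGT72E2, which conjugates lignin precursors, had 7.82, 11.5 and 15.8 CPM in ABA seedlings, against 80.0, 72 and 77.9 CPM in mock seedlings. Terpenoid genes fell in 12 and rose in 3 of 22 cases. HMG1, a reductase at the head of the sterol pathway and one of those that rose, had 1186, 1069.9 and 871 CPM in ABA seedlings, against 349, 321 and 344 CPM in mock seedlings. MYB28 and MYB29 switch on aliphatic glucosinolates. MYB28 had 12.4, 14 and 14.7 CPM in ABA seedlings, against 75.1, 65.8 and 64 CPM in mock seedlings. MYB29 had 2.55, 3.43 and 4.39 CPM in ABA seedlings, against 23.8, 27.2 and 20.9 CPM in mock seedlings.

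Glutathione transferases of the tau and phi classes rose in 17 and fell in 15 of 40 cases, and 1 run of neighbours shared a direction. The run had 9 genes on chromosome 2 (12617936 to 12634120): GSTU7 to GSTU1 and 2 further genes. Every member was at least 2-fold higher in ABA seedlings. However, 1 of the further genes rests on 31 fragments in ABA and 3 in mock libraries (log2 fold change 3.41 ± 0.77). GSTU4 had 130.3, 114 and 162 CPM in ABA seedlings, against 16, 6.37 and 9.45 CPM in mock seedlings. GSTU5 had 285, 255 and 341 CPM in ABA seedlings, against 89.4, 96.5 and 102 CPM in mock seedlings. In contrast GSTU20, on another chromosome, had 36.9, 61 and 129 CPM in ABA seedlings, against 344, 487 and 338 CPM in mock seedlings, with ABA replicate 3 closest to mock. Over the nuclear genome 12 runs of at least 4 neighbouring tested genes were all at least 2-fold higher and 52 were all at least 2-fold lower. The longest falling run had 8 genes on chromosome 1 (24961634 to 25007647), of which 5 are annotated as kinases, together with the immune receptor-like gene SNC4. A run of 7 on chromosome 4 (7401087 to 7432027) held AZI1 and EARLI1, lipid-transfer-like proteins of priming and cold. EARLI1 had 11.6, 23.3 and 46.4 CPM in ABA seedlings, against 200.2, 199 and 119 CPM in mock seedlings, a log2 fold change of -2.67 ± 0.58, with ABA replicate 3 several times ABA replicate 1. Members of such runs are often duplicates of each other, so that fragments that match several of them may be missing from the counts.

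**Figure D5:**
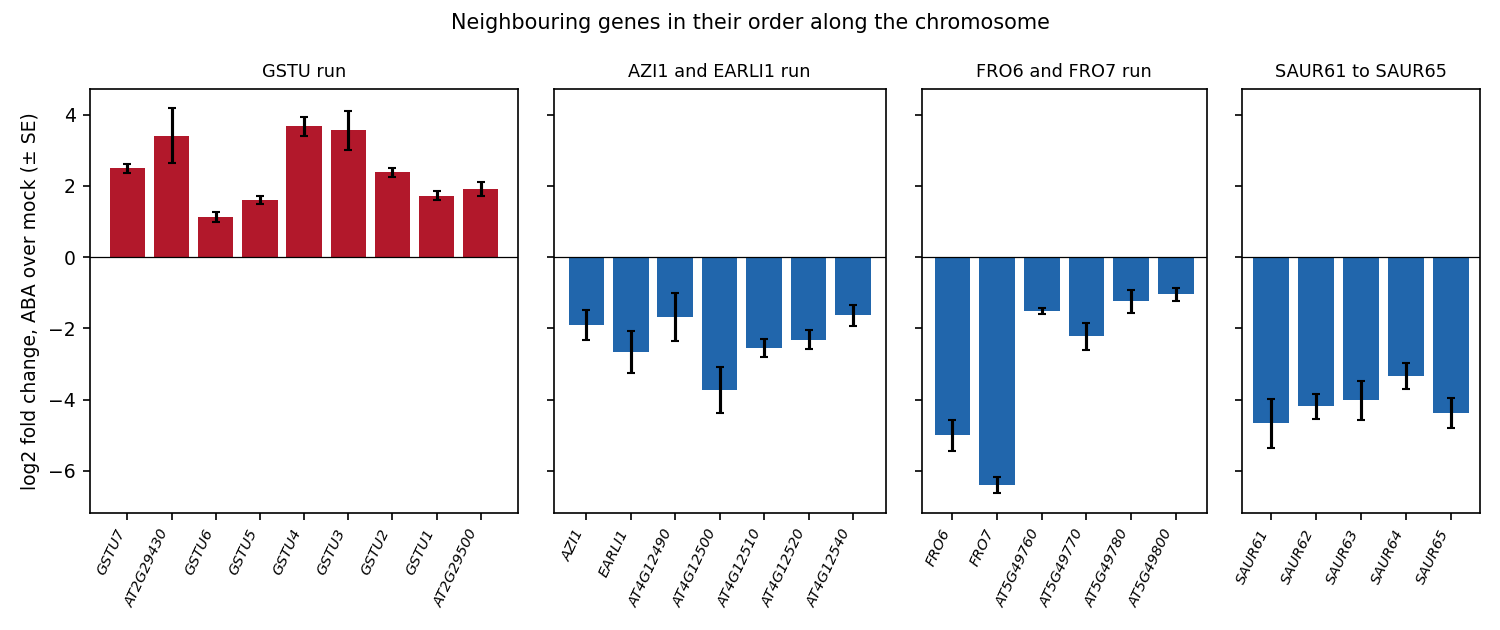
Log2 fold change of ABA over mock (bars, with the standard error as whiskers) for the genes of 4 runs in their order along the chromosome. All 9 genes of the GSTU run rose, and the 7, 6 and 5 genes of the other runs fell.

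Transcription factor families divided by family. NAC factors rose in 39 and fell in 10 of 74 cases, heat shock factors rose in 14 and fell in 2 of 18, and ERF and DREB factors rose in 27 and fell in 9 of 44. NAC019, known from stress and senescence, had 226, 208 and 337 CPM in ABA seedlings, against 2.26, 0.903 and 4.91 CPM in mock seedlings. RD26 had 552, 552 and 545 CPM in ABA seedlings, against 36.6, 33 and 35.7 CPM in mock seedlings. HSFA6B, a heat shock factor tied to ABA and drought, had 309, 287 and 321 CPM in ABA seedlings, against 0.961, 1.38 and 1.32 CPM in mock seedlings, a log2 fold change of 7.96 ± 0.24, its 6 values falling into distinct groups. Small heat shock proteins rose in 15 and fell in 3 of 30 cases. ATHSP22.0, of the endoplasmic reticulum, had 18.8, 16.7 and 21.9 CPM in ABA seedlings, against 0.144, 0 and 0.0528 CPM in mock seedlings. RAP2.6, an ERF factor of stress responses, had 292, 267 and 483 CPM in ABA seedlings, against 2.31, 3.52 and 2.75 CPM in mock seedlings, with ABA replicate 3 highest, whereas ERF105, an ERF factor of cold responses, had 6.77, 4.26 and 2.7 CPM in ABA seedlings, against 35.4, 36.9 and 40.2 CPM in mock seedlings. MYB factors rose in 42 and fell in 29 of 95 cases. MYB102 had 59.6, 55.5 and 50.1 CPM in ABA seedlings, against 0.336, 0.380 and 0.634 CPM in mock seedlings. MYB121 had 35, 34.8 and 37.7 CPM in ABA seedlings, against 0.0961, 0.285 and 0.158 CPM in mock seedlings.

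The bHLH, GATA and TCP families leaned lower, with 47, 12 and 8 members falling of 108, 25 and 18, and 27, 5 and 2 rising. KDR, an atypical bHLH protein of light responses, had 1.45, 1.95 and 2.96 CPM in ABA seedlings, against 30.6, 27.4 and 32.8 CPM in mock seedlings. B-box proteins rose in 8 and fell in 12 of 27 cases. COL9 had 87.9, 85.7 and 67 CPM in ABA seedlings, against 5.04, 5.61 and 5.39 CPM in mock seedlings. BBX18 had 0.753, 0.887 and 1.06 CPM in ABA seedlings, against 12.8, 10.5 and 14 CPM in mock seedlings. WRKY factors rose in 24 and fell in 16 of 61. WRKY46 had 1.68, 1.12 and 1.59 CPM in ABA seedlings, against 9.66, 5.75 and 7.13 CPM in mock seedlings, whereas WRKY48 had 24.2, 13.9 and 19.5 CPM in ABA seedlings, against 4.52, 4.52 and 4.38 CPM in mock seedlings. Members of MAP kinase cascades rose in 26 and fell in 13 of 47 cases. MAPKKK18, an ABA-activated kinase kinase kinase, had 147, 125 and 136 CPM in ABA seedlings, against 1.3, 1.28 and 2.01 CPM in mock seedlings. MPK7, which acts below it, had 135, 119 and 140.4 CPM in ABA seedlings, against 23.3, 23.9 and 24 CPM in mock seedlings, while MPK3, an immune MAP kinase, had 61.4, 66.6 and 46.3 CPM in ABA seedlings, against 153, 124 and 128 CPM in mock seedlings. Flowering genes fell in 11 and rose in 4 of 20 cases. RAV2 (TEM2), a repressor of flowering, had 45.6, 49.1 and 30.3 CPM in ABA seedlings, against 248, 239 and 241 CPM in mock seedlings.

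Histone and DNA methylation genes were mostly lower, whereas called proteasome subunits rose by less than 2-fold. Of 22 histone genes 14 fell and 3 rose, with HTA6, an H2A form, at 24.6, 30.2 and 33.9 CPM in ABA seedlings, against 65.8, 70.6 and 68.3 CPM in mock seedlings. Of 18 DNA methylation and demethylation genes 11 fell and 2 rose. MET1, the maintenance methyltransferase, had 19.5, 16.3 and 19.9 CPM in ABA seedlings, against 42.3, 42.2 and 35.3 CPM in mock seedlings. CMT2, which methylates outside CG sites, had 12.3, 11.6 and 9.09 CPM in ABA seedlings, against 32.2, 29.6 and 27.8 CPM in mock seedlings. All 5 called growth-regulating factors fell, out of 9. In the proteasome 14 of 40 subunits rose, none of them at least 2-fold, and none fell. Log2 fold changes of the 40 subunits ran from -1.15 to 0.97, the lowest of which did not pass the test. The counts were 5 rising and 4 falling under upper-quartile scaling, and 9 rising and 1 falling without mock replicate 3. RPT3, an ATPase of the regulatory cap, had 293, 282 and 269 CPM in ABA seedlings, against 149, 144 and 138 CPM in mock seedlings.

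Of 306 tested genes annotated as ribosomal proteins, 43 (14.1%) rose and 61 (19.9%) fell, against 31.9% and 32.8% of all tested genes. The counts shifted with single libraries: 73 rose without ABA replicate 1, 99 fell without ABA replicate 3, and 26 rose under upper-quartile scaling. RPL27, of the plastid ribosome, had 115, 133 and 153 CPM in ABA seedlings, against 309, 370.0 and 306 CPM in mock seedlings. In ribosome biogenesis 11 of 20 genes rose and 1 fell, although 0 fell without any 1 of 4 libraries (mock replicates 1 and 3, ABA replicates 1 and 2) and 2 without ABA replicate 3. FZF had 85.6, 76.1 and 80.0 CPM in ABA seedlings, against 33.5, 39.8 and 36 CPM in mock seedlings. RNA helicases rose in 20 (32.8%) and fell in 16 (26.2%) of 61 cases, with 12 rising under upper-quartile scaling. DRH1 had 581, 493 and 466 CPM in ABA seedlings, against 218, 214 and 224.5 CPM in mock seedlings. Of 20 SR splicing factors 11 rose and 3 fell, or 5 fell under upper-quartile scaling. SR45a, known to respond to stress, had 64, 67.4 and 69.6 CPM in ABA seedlings, against 31.5, 27.9 and 25.2 CPM in mock seedlings. The telo box was in 109 of the 306 ribosomal protein promoters and in 9 of the 20 biogenesis promoters, against 6.22% of all promoters.

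Marker lists of cell types and organs moved to different degrees. All 10 mesophyll and leaf markers fell. Of 13 root markers 8 fell and 1 rose. PRP3, a root hair wall protein, had 16.7, 14.1 and 26.7 CPM in ABA seedlings, against 99.2, 72.9 and 99 CPM in mock seedlings, whereas EXPA7, another root hair gene, had 10.4, 13.8 and 16.5 CPM in ABA seedlings, against 14.2, 12.2 and 14.4 CPM in mock seedlings, with overlapping groups. SHR and SCR, which pattern the inner root, changed by -0.83 ± 0.10 and -0.36 ± 0.10. The 8 guard cell markers summed to 190, 172 and 182 CPM in ABA seedlings, against 179, 172 and 178 CPM in mock seedlings, and overlapped. Of these GORK rose, while MYB60, a factor of stomatal opening, had 2.66, 3.78 and 3.6 CPM in ABA seedlings, against 14.7, 15.7 and 12.2 CPM in mock seedlings. Of the shoot meristem markers 3 of 4 tested fell, with KNAT1 at 4.69, 5.74 and 5.76 CPM in ABA seedlings, against 13.6, 13.3 and 11 CPM in mock seedlings. None of the 6 tested seed markers passed the test, and 1 fell without ABA replicate 3, without mock replicate 1 or with no filter on low counts. The part of tissue proportions in the results was not tested. These named genes also share exon positions with another gene: LHCA4, LHCB3, LHB1B2, LNK2, PHOT2, ELF3, CDF5, WRKY33, WRKY53, BCAT-2, TPS1, KCS2, ABCG1 and NRT1.8. The counting had no option for strand or for overlapping reads, so that fragments at the shared positions may be missing from their values.

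The same genes were also read in cdk8 seedlings. A difference between the wild-type and cdk8 responses was called for 1103 genes or 5.21% of those tested, and 940 of them were among the 13685 genes called in wild type. Of the genes named here 15 were among them, CBF4, AT1G10585 and DIN2 with the widest gaps and CAB2, CAB3, GUN4 and PRR9 with a deeper fall in wild type.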

How the data were processed

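The values are fragment counts per gene, deposited by the authors. Per the file headers the counts were made with featureCounts 1.4.6 in paired-end mode over exons grouped by gene, with no option for strand, for multiply mapped or for overlapping reads. Per the submitters' processing notes FastQC, TopHat2, featureCounts and the TAIR10 genome were used. Per the labels, total RNA was taken with Trizol from whole seedlings. The 12 libraries were fitted together in edgeR 4.0.16 (R 4.3.3, limma 3.58.1) with a mean for each of 4 groups of 3 libraries, trimmed mean of M values scaling, the default filter on low counts and the quasi-likelihood test, with Benjamini-Hochberg adjustment over all tested genes. A gene was called at an adjusted p under 0.05. CPM values are per 1000000 fragments of the scaled library total of tested genes. Replicates of a group differed by more than counting noise and were counted as separate libraries, although preparations of 1 RNA sample could differ as much.

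Gene lists and members were chosen with earlier results of these data known, and list members were corrected from the product names in the annotation. The genes named are the 10 top gains and 10 top losses of mean CPM, up to 3 rising and 3 falling members of each list with a group mean of at least 5 CPM and no overlap of libraries, members of the time and tissue lists, and 3 genes in each direction without a symbol. Others were chosen after their values were seen. Of 21151 tested genes 3183 (15.0%) share exon positions with another gene. Promoters are RefSeq TAIR10.1. Alternatives were another scaling, another filter, DESeq2 1.42.0, the 6 wild-type libraries alone, no organelle genes, each library left out in turn and a block on replicate number. The fit was tested on simulated data in which few genes changed, so that test does not cover scaling under a response this broad. The floor of 3 counts covers counting error only. Python 3.11.15, pandas 2.3.3 and matplotlib 3.10.9 were used for tables and figures.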

Additional observations from a re-analysis of the deposited data

Results flagged for a closer look

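Among the genes named, 15 were singled out because the difference between the wild-type and the cdk8 response (wild type minus cdk8, log2) passed the edgeR quasi-likelihood test with Benjamini-Hochberg adjustment over all tested genes. By its label, cdk8 ABA replicate 3 has a library number outside the consecutive run of the other libraries, and the part of this in the differences was not tested. CAB2 had a log2 fold change of ABA over mock of -2.80 in wild type and -1.55 in cdk8, a difference of -1.25 ± 0.15 (adjusted p = 0.0011). The difference was -0.63 for its near-identical neighbour CAB3, -0.75 for GUN4 and -1.08 for PRR9, all 3 of which fell further in wild type. DIN2 changed by 4.41 in wild type and 1.79 in cdk8, a difference of 2.62 ± 0.43 (adjusted p = 0.0048). Differences of the same sign were 3.75 for AT1G10585, 0.61 for ACX1, 0.60 for HMG1, 0.56 for NAC6 and 0.74 for SIP3, each of which rose further in wild type. CBF4 had no fragment in wild-type mock libraries, so that its fitted difference of 4.34 depends on the prior count.

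PRR5 changed by 0.63 in wild type and 1.88 in cdk8, a difference of -1.25 ± 0.23 (adjusted p = 0.0088). CDF2, not called in wild type, had a log2 fold change of -0.23 in wild type and -1.28 in cdk8, a difference of 1.05 ± 0.15 (adjusted p = 0.0020). TCH2 (-1.08) and STZ (-0.81) had lower fold changes in wild type than in cdk8. Single outlying values were not tested within groups of 3 libraries.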

How the results depend on the processing

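The counts of genes that rose or fell, overall and at least 2-fold, stayed within 1.5 times the reported counts under all 14 alternatives. Leaving out 1 library gave 6124 to 6610 genes higher and 6446 to 6886 lower, and 2525 to 2640 at least 2-fold higher and 3433 to 3626 at least 2-fold lower. DESeq2 gave 6819 higher and 6757 lower, and upper-quartile scaling 5484 and 8149, with 12418 of the 13685 calls kept in direction. The file headings number the libraries of each group, and a fit with that number as a replicate block gave 6523 genes higher and 6757 lower. The deviations of same-numbered libraries correlated at 0.086, 0 and -0.021, and those of differently numbered libraries at -0.092 to 0.085. With 3 libraries in a group, such values cannot show whether same-numbered libraries share a harvest. Of the comparisons of named genes with their alternatives, none changed sign with a call. Calls lost were those of PRR7 and TCH2, each only when a library was left out, and CDF2 gained a call under upper-quartile scaling (log2 fold change -0.36) and without ABA replicate 1 (-0.33). The causes were not tested. Of 2852 list counts under alternatives 84 moved by more than 1.5 times, mostly counts under 10. Depth limits genes near 3 fragments, and 12451 genes were not tested.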

Other observations

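Enzymes that remove hydrogen peroxide and other oxidants went different ways in ABA seedlings. Of 31 antioxidant genes 9 rose and 16 fell, 4 and 1 of them at least 2-fold. CAT1, a catalase known to respond to ABA, had 218, 214 and 193 CPM in ABA seedlings, against 80.7, 89.2 and 70.6 CPM in mock seedlings. CAT2, the main leaf catalase, had 413, 389 and 303 CPM in ABA seedlings, against 752, 672 and 759 CPM in mock seedlings. These catalases thus moved in opposite directions, and the groups overlapped for neither. APX2, a cytosolic ascorbate peroxidase induced by strong light and heat, had 6.37, 5.32 and 6.93 CPM in ABA seedlings, against 0.432, 0.0475 and 0.475 CPM in mock seedlings. Class III peroxidases, secreted enzymes of the wall, rose in 19 (31.7%) and fell in 20 (33.3%) of 60 cases. These shares are close to the 31.9% and 32.8% of all tested genes. PRXCA had 9.67, 10.05 and 10.05 CPM in ABA seedlings, against 80.6, 83.3 and 53.6 CPM in mock seedlings.

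Among export carriers of the MATE class 21 (47.7%) rose and 15 (34.1%) fell of 44. Among ABC transporters 43 (39.4%) rose and 40 (36.7%) fell of 109, against 31.9% and 32.8% of all tested genes. AT5G52050, a MATE carrier, had 133, 105 and 129 CPM in ABA seedlings, against 7.83, 4.09 and 6.39 CPM in mock seedlings, a log2 fold change of 4.33 ± 0.18. ABCG21, a transporter of the ABCG class, had 61.1, 52 and 43.3 CPM in ABA seedlings, against 4.47, 4.71 and 5.28 CPM in mock seedlings. F-box proteins, the substrate-binding subunits of many ubiquitin ligases, had 628 annotated members, of which 187 were tested, 58 rose and 37 fell. AT1G23390, a Kelch repeat F-box protein, had 66.4, 73.9 and 41 CPM in ABA seedlings, against 331, 390.2 and 394 CPM in mock seedlings. NF-Y subunits of CCAAT-binding factors rose in 16 and fell in 11 of 29 cases. NF-YB3, known for its part in flowering by day length, had 6.83, 8.16 and 6.45 CPM in ABA seedlings, against 39.4, 40.3 and 36.3 CPM in mock seedlings.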
